A study of Mus musculus with 8 samples.

Results

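The keratin genes of the mouse were examined in crypts of the small intestine for acetylation of histone H3 at lysine 27 (H3K27ac) and lysine 9 (H3K9ac). Members were all protein-coding genes of the RefSeq table for GRCm38.p6 whose symbol is Krt followed by a number, 53 of 21887 genes, without the keratin-associated and keratinocyte-associated proteins (Krtap, Krtcap). Of these, 27 lie in the cluster on chromosome 11, which holds type I keratins, and 26 in the cluster on chromosome 15, which holds type II keratins and the type I gene Krt18. By the tissue they are known from, 5 were classed as keratins of simple epithelia (Krt7, Krt8, Krt18, Krt19 and Krt20) and 38 as skin keratins: 14 of the epidermis, 8 of the inner root sheath of the hair follicle and 16 of the hair shaft. A further 5 belong to other stratified epithelia (Krt4, Krt12, Krt13, Krt24 and Krt76), and 5 were left unclassified (Krt23, Krt42, Krt80, Krt90 and Krt222).

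CUT&Tag, in which an antibody guides a transposase to chromatin carrying a mark, was applied to crypts of male C57BL/6J mice aged 9 weeks. No allele or transgene is named in the labels, and the crypts were dissociated to single cells before the assay with no sort for a cell type stated. For each mark there were 4 groups: mice with food (Fed) or fasted for 24 h (Fast), each without tetracycline or with tetracycline, an antibiotic, for 21 days. Each group was 1 sample with 2 deposited peak lists, numbered rep 1 and rep 2 in their names. Whether the numbers stand for separate mice is not stated. The list was therefore the unit of spread, and the p-values measure the spread between lists, which may be technical.

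Keratins are the intermediate filament proteins of epithelial cells, and a filament is built from pairs of 1 type I and 1 type II protein. Simple epithelia, including that of the intestine, use the type II keratin Krt8 with the type I partners Krt18, Krt19 and Krt20, whereas basal and suprabasal layers of the epidermis use pairs such as Krt5 with Krt14 and Krt1 with Krt10. H3K27ac is found at active enhancers and promoters and H3K9ac mainly at active promoters.

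The RefSeq promoter windows of 4 simple keratins are printed beside those of Krt5 and Krt14, the type II and type I pair of the basal epidermis, because the H3K27ac peaks at these starts separated the groups. Each window runs 5′ to 3′ from 250 bases before the start site to 50 bases after it, in GRCm38.p6, and capitals mark the motifs found by a search on both strands. Krt19 had no window in the table.
Krt8, chr15:102004293-102004592, minus strand: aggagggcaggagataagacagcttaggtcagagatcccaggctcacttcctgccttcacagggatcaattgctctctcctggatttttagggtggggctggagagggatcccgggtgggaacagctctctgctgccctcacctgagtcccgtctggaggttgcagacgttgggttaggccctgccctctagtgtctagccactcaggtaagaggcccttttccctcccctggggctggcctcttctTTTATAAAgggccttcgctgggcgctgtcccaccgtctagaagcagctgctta
Krt18, chr15:102027966-102028265, plus strand: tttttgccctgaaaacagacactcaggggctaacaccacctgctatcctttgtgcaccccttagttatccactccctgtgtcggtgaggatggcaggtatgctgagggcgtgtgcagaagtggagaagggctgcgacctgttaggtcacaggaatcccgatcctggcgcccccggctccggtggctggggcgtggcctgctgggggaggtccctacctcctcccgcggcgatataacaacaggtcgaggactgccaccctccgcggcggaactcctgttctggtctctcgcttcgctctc
Krt20, chr11:99438104-99438403, minus strand: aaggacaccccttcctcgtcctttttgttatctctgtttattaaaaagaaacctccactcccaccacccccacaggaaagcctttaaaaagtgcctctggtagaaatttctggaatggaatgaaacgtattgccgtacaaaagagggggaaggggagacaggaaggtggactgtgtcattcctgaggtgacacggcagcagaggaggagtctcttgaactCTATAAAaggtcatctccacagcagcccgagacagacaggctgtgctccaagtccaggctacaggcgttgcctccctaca
Krt7, chr15:101412153-101412452, plus strand: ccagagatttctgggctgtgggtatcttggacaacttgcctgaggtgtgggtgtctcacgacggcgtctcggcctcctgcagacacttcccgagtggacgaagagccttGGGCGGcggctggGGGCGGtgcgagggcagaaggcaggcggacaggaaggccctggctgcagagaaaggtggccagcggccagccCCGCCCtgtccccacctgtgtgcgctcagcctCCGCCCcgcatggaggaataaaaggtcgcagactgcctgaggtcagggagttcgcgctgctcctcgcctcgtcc
Krt5, chr15:101712856-101713155, minus strand: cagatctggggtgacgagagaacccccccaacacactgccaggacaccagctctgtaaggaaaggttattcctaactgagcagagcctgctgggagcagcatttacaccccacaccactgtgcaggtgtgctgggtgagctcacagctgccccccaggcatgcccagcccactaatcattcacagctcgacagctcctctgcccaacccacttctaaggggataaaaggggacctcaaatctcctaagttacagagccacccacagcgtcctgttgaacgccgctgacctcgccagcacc
Krt14, chr11:100205981-100206280, minus strand: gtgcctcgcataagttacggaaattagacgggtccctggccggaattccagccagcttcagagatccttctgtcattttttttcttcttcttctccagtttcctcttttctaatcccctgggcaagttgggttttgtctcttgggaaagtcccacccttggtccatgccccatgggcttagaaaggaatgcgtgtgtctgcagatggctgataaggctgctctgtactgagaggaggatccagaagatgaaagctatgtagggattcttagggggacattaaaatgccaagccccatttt
The Krt8 window lay wholly inside peaks in 8 of 8 H3K27ac lists and 8 of 8 H3K9ac lists. For H3K27ac, the Krt7 window was wholly covered in 8 lists, that of Krt18 in 7 and that of Krt20 in 6, and the remaining lists covered them in part. H3K9ac covered these starts less completely: the whole window in 3 lists for Krt7, 3 for Krt18 and 2 for Krt20, and any of it in 4, 5 and 7 lists. Neither the Krt5 nor the Krt14 window was touched by a peak of either mark in any list. The RefSeq start used for Krt14, position 100206030 of chromosome 11, lies inside the gene model, whose right-hand end is at 100207510. A peak lay within 1 kb of that end in 0 H3K27ac lists and 1 H3K9ac list. Among the 25 skin keratins with a window, an H3K27ac peak lay within 1 kb of the start of Krt10 in 1 list and of Krt32 in 4 lists, and of the others in none.

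The base composition and motifs of these windows are given as a description, with no test. GC content was 66.3% for Krt7, 61.3% for Krt18, 58.0% for Krt8 and 50% for Krt20, with a median of 46.3% over the skin windows and 52.7% over all 32851 windows of the table. The 21263 windows of protein-coding genes had a median of 56.3%. The epidermal windows alone had a median of 52.8% and reached 62.0%, with Krt5 at 57.7%, and so overlapped the simple keratins. The TATA box (TATAAA) was found in 19 of 37 keratin windows, which belong to 36 members, and in 13.6% of all windows. It was present in 2 of 4 simple and 14 of 25 skin windows, the latter made up of 7 of 8 inner root sheath windows, 6 of 9 hair shaft windows and 1 of 8 epidermal windows. The first letter of the TATA box stood 29 bases before the start in Krt20, and the letters of the caudal-type homeobox motif (TTTATNG or TTTACNG) found 30 bases before the start there overlap it. In Krt8 a pair of overlapping TATA letters, one on each strand, lay 3 and 1 bases before the start. The caudal-type motif was in 15 keratin windows and in 18.8% of all windows, and in Krt12, Krt20, Krt25, Krt26, Krt42, Krt72, Krt73 and Krt84 its letters overlap those of the TATA box. Krt7 held 4 GC boxes (GGGCGG) at 141, 128, 56 and 24 bases before its start. Any GC box was in 2 keratin windows, in 35.7% of all windows and in 46.2% of protein-coding windows. AP-1 (TGANTCA) was in 2 keratin windows and 7.81% of all windows, and HNF4 (CAAAGTCCA) was in 0 keratin windows and 0.475% of all. A match is a run of letters and was not tested as a binding site.

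Lists held between 32392 and 68545 H3K27ac peaks and between 17249 and 99050 H3K9ac peaks, and their depth is unknown. Among the 16 lists, 4 stood apart in that over 10% of their peaks were exactly 200 bp wide. These were the H3K27ac list 1 of Fast without tetracycline and the H3K9ac lists Fast 1 without and Fast 1 and 2 with tetracycline. A gene was called marked in a list when a peak overlapped the 1 kb on either side of either gene end. All 8 fixed markers of intestinal epithelium (Epcam, Cdh1, Vil1, Cdx1, Cdx2, Hnf4a, Cldn7 and Elf3) were marked in every H3K27ac list and 7 or 8 of them in every H3K9ac list. Of 12 markers of stratified epithelium, 1 to 4 were marked in an H3K27ac list and 0 to 5 in an H3K9ac list, with 7 of the 12, Trp63, Ivl, Lor and Flg among them, in 0 H3K27ac lists. The exceptions for H3K27ac were Cdsn, marked in 8 lists, Dsg3 in 3, Sprr1a in 2, and Flg2 and Tgm1 in 1 each, and Lor was marked in 4 H3K9ac lists. Of 7 mesenchymal markers 0 or 1 were marked for H3K27ac and 0 to 4 for H3K9ac, and of 7 immune markers 1 to 4 and 0 to 2.

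H3K27ac separated the keratin classes in every list. All 5 simple keratins were marked in 8 of 8 lists, whereas 31 of 38 skin keratins were marked in no list and 1, Krt78, in all 8. Over all genes, 33.6% were marked in all 8 lists and 39.4% in none. In single lists 5.26% to 15.8% of the skin keratins were marked, below the 42.9% to 50.7% of all genes in each list. Without the 1 list of many narrow peaks, an alternative chosen after seeing the data, the 5 simple keratins were marked in 7 of 7 lists and again 31 skin keratins in none.

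H3K9ac gave the same order with a less even result. Krt8 and Krt19 were marked in all 8 lists, Krt20 in 7, and Krt7 and Krt18 in 6 each. For Krt7, the Fast list 2 without tetracycline overlapped by only 15 bp, and 5 lists had a peak within 1 kb of its start. The 2 lists that lacked both Krt7 and Krt18 were the Fed lists 1 without and with tetracycline, which held the fewest H3K9ac peaks (17249 and 24643). Of the skin keratins, 14 of 38 were marked in no H3K9ac list and 0 in all 8, while 25.2% of all genes were marked in none and 21.1% in all 8. The list of Fast 1 with tetracycline alone marked 16 skin keratins and 28 of all 53, and the list of Fed 1 without tetracycline marked 1 and 5. Narrow peaks made up a large part of the longer H3K9ac lists, whose median peak width was as low as 303 bp. With peaks of at least 500 bp alone, 1 to 6 skin keratins were marked in an H3K9ac list in place of 1 to 16, and the 3 lists with 1 or 2 marked skin keratins lost none. With the 3 H3K9ac lists of many 200 bp peaks set aside, 26 of 38 skin keratins were marked in none of the other 5 lists and 3 of 5 simple keratins in all of them. Across both marks, 16 of 53 keratins were marked by both, 21 by H3K9ac only, 1 (Krt15) by H3K27ac only and 15 by neither. The right-hand end of Krt15 is within 1 kb of the H3K27ac region over its neighbour Krt19, described below. Of all 21887 genes, 12658 were marked by both, 3710 by H3K9ac only, 611 by H3K27ac only and 4908 by neither.

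**Figure D1:**
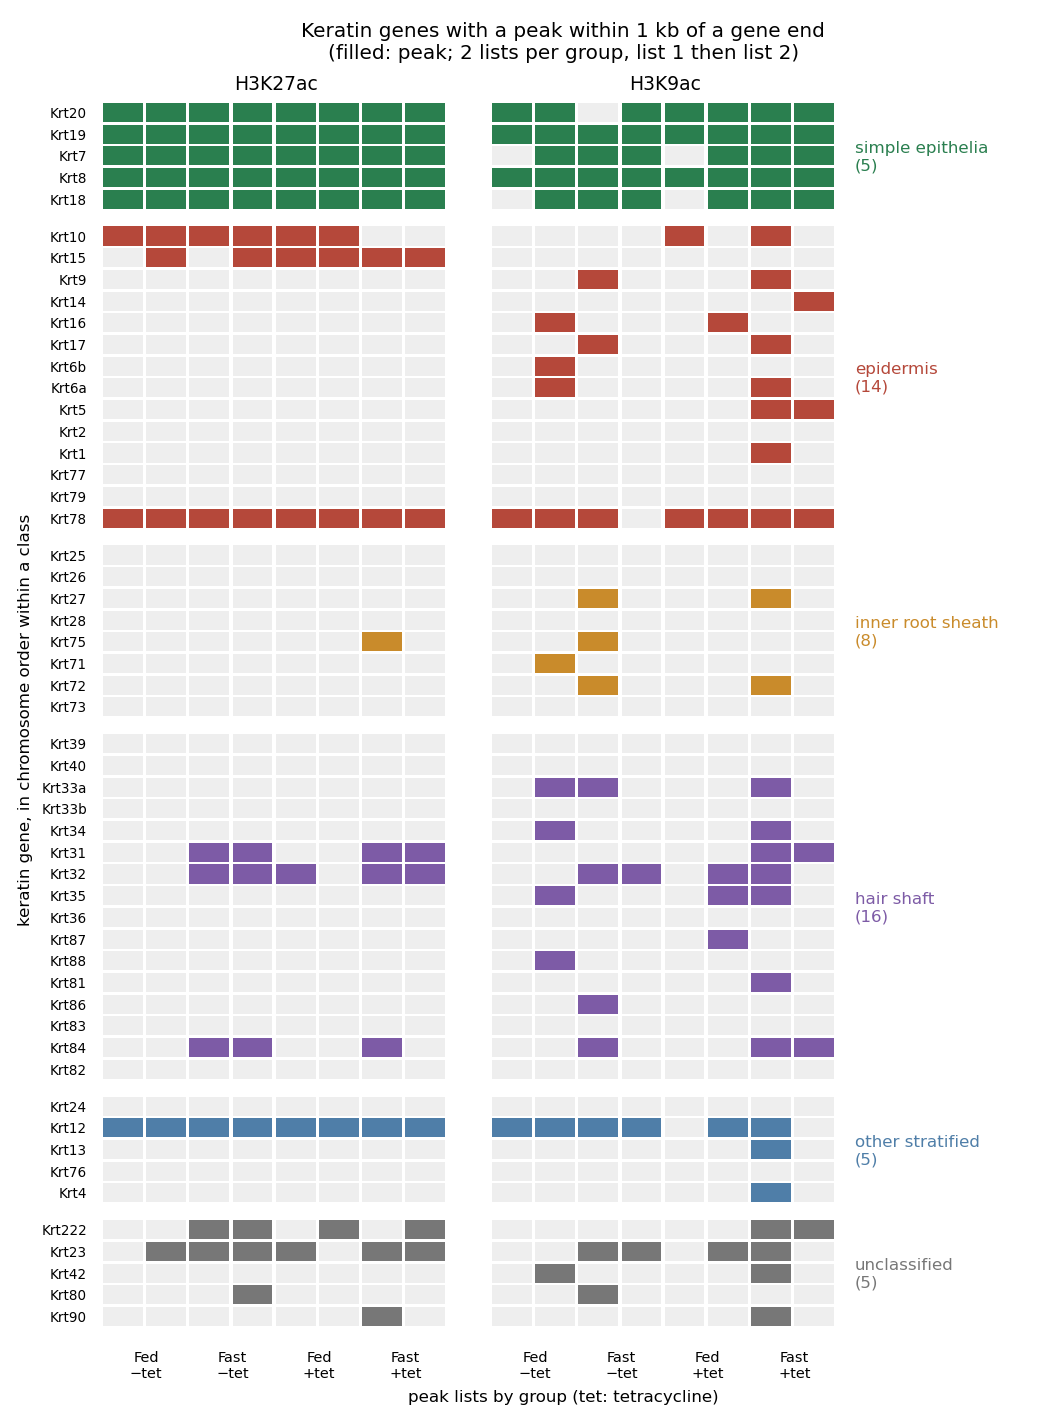
Keratin genes (vertical axis, by class and then chromosome position) against the 16 peak lists (horizontal axis, by mark and group), with a filled cell where a peak lay within 1 kb of a gene end. The 5 simple keratins are filled in all 8 H3K27ac lists, and 31 of 38 skin keratins are empty there.

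**Figure D2:**
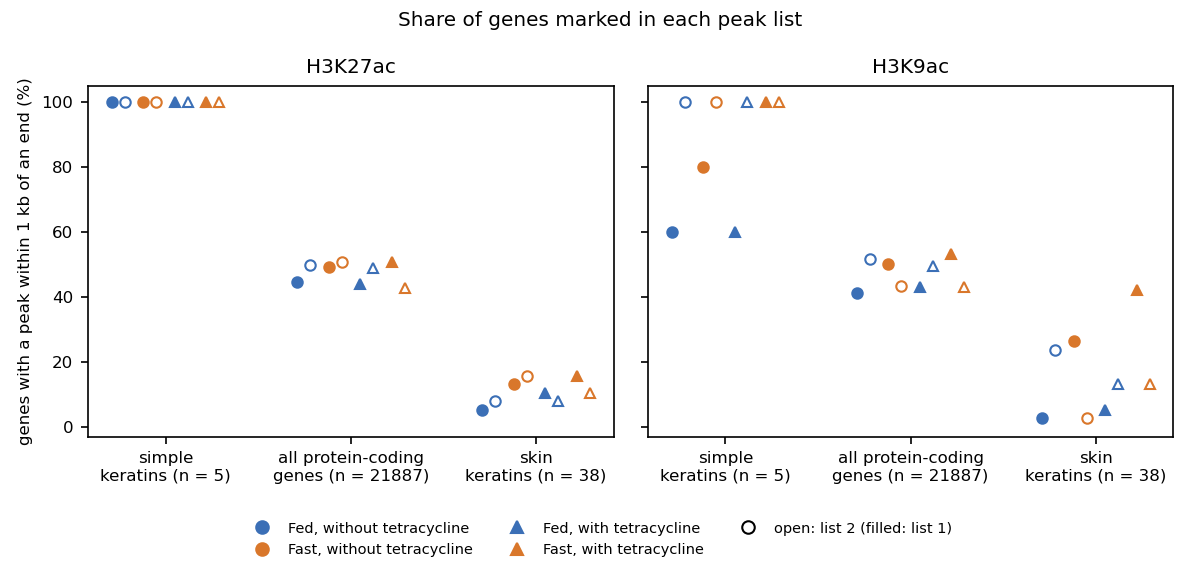
Percent of genes marked (vertical axis) in each list for simple keratins, all protein-coding genes and skin keratins, with H3K27ac on the left and H3K9ac on the right. Each symbol is 1 list; blue is Fed, orange is Fast, triangles are with tetracycline and open symbols are list 2. For H3K27ac the skin keratins sit between 5.26% and 15.8% and all genes between 42.9% and 50.7%.

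Krt8, the common type II keratin of simple epithelia, lay in the widest acetylated stretch of the chromosome 15 cluster. The H3K27ac region over its start, formed by merging overlapping peaks of the 8 lists, spanned chr15:102001254-102010219. Between 6038 and 8260 bp of it were covered in a list. The score that the authors gave its peak lay at the 97.16th to 99.89th percentile of the list it came from. A second region, chr15:102012400-102018847, lay 8058 bp from Krt8 toward Krt18 and had percentiles from 97.16 to 99.96. On the other side, chr15:101973374-101979044 was present in all 8 lists, 17667 bp from Krt8 and inside the RefSeq model of Krt78.

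Krt78 is a type II keratin of stratified epithelium, and it was the 1 skin keratin marked in all 8 H3K27ac lists. Its RefSeq model is 50624 bp long, and its right-hand end lies in the same region (chr15:101993869-101997713) as the left-hand end of Krt8. All 8 H3K27ac lists marked that end and 0 the other end. The start site that RefSeq gives for Krt78, at position 101954287 of chromosome 15, had 0 peaks within 1 kb in lists of either mark. Its mark at a gene end therefore could not be told apart from that of Krt8.

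Krt19, a type I keratin that lacks most of the tail domain, stood in an acetylated run on chromosome 11. The region over the gene, chr11:100136215-100148474, was followed by chr11:100148680-100160127 and chr11:100162665-100170311, each present in all 8 H3K27ac lists. Peak scores in the region over the gene were at the 95.76th to 99.94th percentile. H3K9ac had a region of 10910 bp over the gene in all 8 lists. Krt15, a keratin of basal keratinocytes, lies next to Krt19, and its right-hand end was marked by H3K27ac in 6 lists (3 Fed and 3 Fast) and by H3K9ac in 0. That end, at 100135949, is within 1 kb of the region over Krt19, and the left-hand end was marked in 1 H3K27ac list. The mark at the right-hand end therefore could not be told apart from that of Krt19. Between the hair keratin Krt36 and Krt13, a keratin of the oral and oesophageal lining, H3K27ac region chr11:100112815-100114624 was present in all 8 lists, 2703 bp from Krt13, which itself was marked in 0 H3K27ac lists.

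Krt20, a type I keratin of the differentiated intestinal epithelium, had H3K27ac regions over and before its start, from chr11:99434951-99437351 to chr11:99442710-99443945, in all 8 lists. Farther out lay chr11:99453648-99455595, chr11:99458637-99459850 and chr11:99461116-99462556, the last 22963 bp from Krt20 and 15417 bp from Krt23, also in all 8 lists. The middle one had a median score percentile of 93.2, above the median of 64.5 at the start itself. Krt12, the type I keratin of the corneal epithelium, is the neighbour of Krt20. Its left-hand end was marked by H3K27ac in 8 lists and by H3K9ac in 6, through chr11:99413914-99415551, and its start site at the other end in 0 lists of either mark.

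Krt18 and Krt7 had shorter regions of lower score than those over Krt8 and Krt19. The H3K27ac region at Krt18, the type I partner of Krt8, was chr15:102027663-102029428, with score percentiles from 3.97 to 77.0. That at Krt7, a type II keratin of ducts and glands, was chr15:101410458-101413377, with percentiles from 6.48 to 73.0. Both regions were present in all 8 H3K27ac lists.

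**Figure D3:**
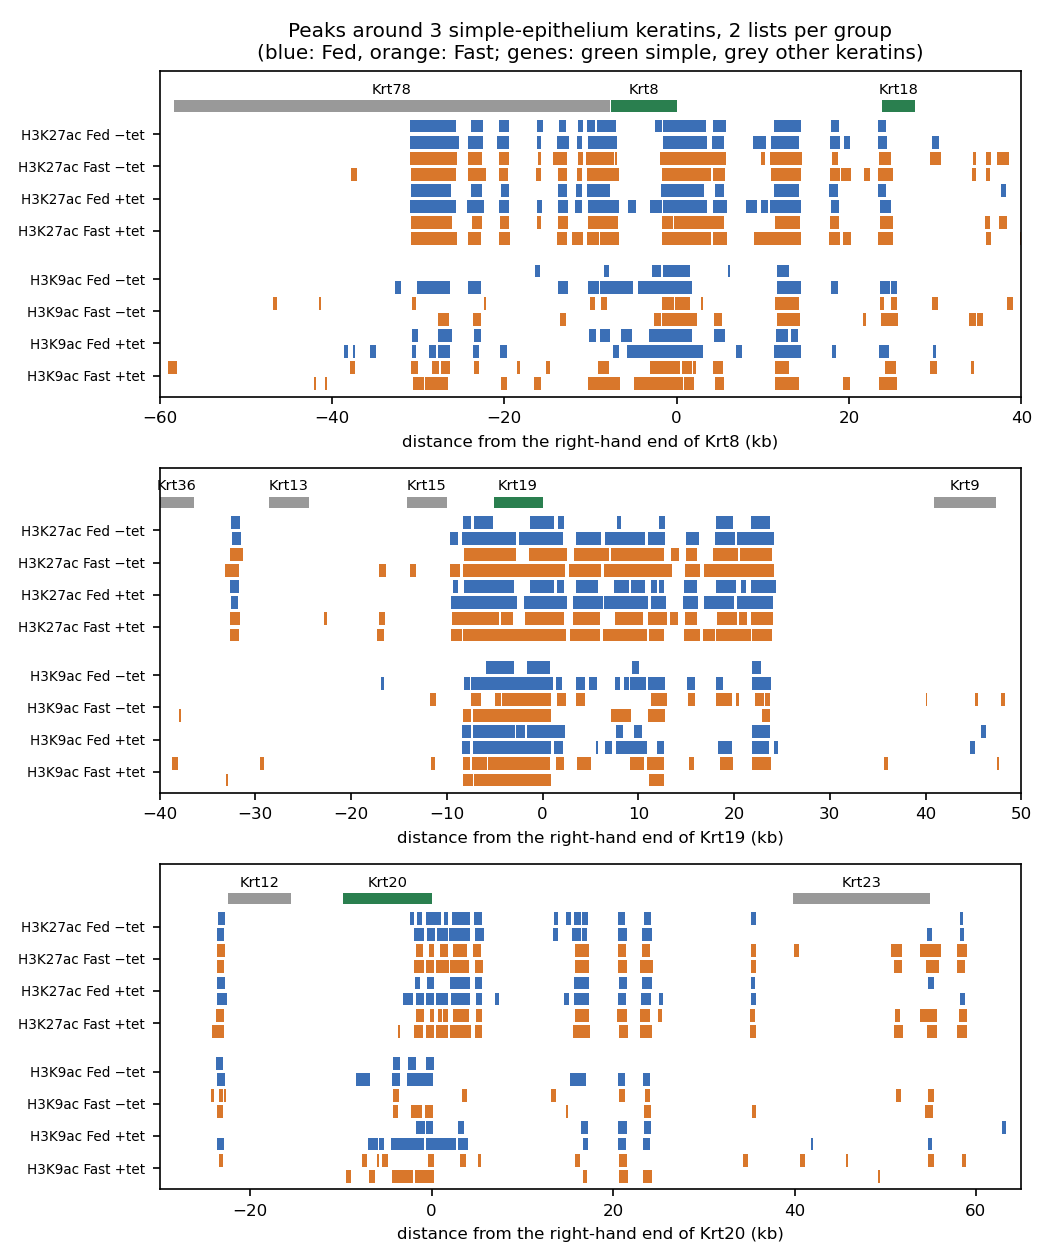
Peaks as bars against the distance in kb from the right-hand end of Krt8, Krt19 and Krt20 (horizontal axes), 1 row per list grouped by mark, feeding and tetracycline (vertical axes); blue is Fed and orange is Fast. Peaks recur over the simple keratins, in green, and over the stretch of the Krt78 model next to Krt8. Among the grey genes they also lie over Krt23 and at an end of Krt12 and of Krt15, and are sparse over the others.

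Acetylation of both clusters gathered near the simple keratins. The clusters, from the first to the last keratin with 1 kb on either side, are chr11:99231761-100270951 and chr15:101347315-102033026. Within 30 kb of a simple keratin, a distance chosen after seeing the data, a median of 28.2% of bases on chromosome 11 were covered by H3K27ac peaks, against 0.785% of the rest of that cluster. On chromosome 15 the medians were 22.6% and 0.445%. For H3K9ac they were 14.1% and 0.471% on chromosome 11 and 11.8% and 0.754% on chromosome 15. The ranges over the 8 lists of near and far values did not overlap in any of the 4 pairs. Of 96 H3K27ac regions in the clusters, 23 (24.0%) had a peak in all 8 lists, against 14.6% of all 112301 H3K27ac regions, and 22 of these lay within 30 kb of a simple keratin. The exception was chr15:101521790-101524446, 580 bp from the hair keratin gene Krt84. For H3K9ac, 5 of 283 regions (1.77%) were in all 8 lists, close to the 1.52% of all H3K9ac regions, and all 5 lay within 30 kb of a simple keratin.

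The number of keratins marked by H3K27ac was higher in Fast than in Fed lists. Without tetracycline, Fed lists 1 and 2 marked 8 and 10 of 53 keratins, and the 2 lists of Fast marked 13 and 15. Under tetracycline, 11 and 10 keratins were marked in Fed and 14 and 12 in Fast. The 4 Fast lists (mean 13.5 ± 1.29 SD) all lay above the 4 Fed lists (9.75 ± 1.26 SD), while all genes went from 46.9% marked in Fed to 48.4% in Fast. The simple keratins made no part of the difference, since all 5 were marked in every list. With the same number of top-scoring peaks (32392) kept in each list, Fed lists marked 7 to 11 keratins and Fast lists 9 to 10, and the difference of the means was 1.0 in place of 3.75. Of the 7 immune markers, 1 to 3 were marked in Fed lists and 3 to 4 in Fast lists, and their part in the result was not tested. Ptprc, which encodes CD45, was marked in 0 Fed and 4 Fast lists, Cd8a and Itgam in 2 Fed and 4 Fast each, and Ms4a1 in 0 and 1. Cd3e went the other way, with 4 Fed and 2 Fast lists, and Cd4 was marked in no H3K27ac list. Of the 12 stratified markers, 1 to 2 were marked in Fed and 1 to 4 in Fast lists.

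Krt31, a type I keratin of the hair cortex, was the 1 member with H3K27ac at a gene end in each of the 4 Fast lists and in 0 Fed lists, a pattern held by 0.0959% of all genes. Its region, chr11:100047049-100048404, lies inside the gene near the left-hand end, away from the RefSeq start, which had 0 peaks within 1 kb. The score percentiles of its peaks were 3.42 to 39.2, and Krt31 was marked in 0 lists when the upper 0.5 of each list by score, or an equal number of top peaks, was kept. For H3K9ac, Krt31 was marked in 2 Fast and 0 Fed lists. No keratin had the opposite H3K27ac pattern (background 0.0137%). For H3K9ac no keratin had the Krt31 pattern (background 0.0777%) or the reverse (0.0411%).

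Other keratins with a difference of at least 3 lists between feeding states were hair keratins. Krt32 was marked by H3K27ac in 1 Fed and 4 Fast lists and by H3K9ac in 1 Fed and 3 Fast. Krt84 was marked in 0 Fed and 3 Fast lists for each mark, and for H3K27ac the region 580 bp from its end was itself present in all 8 lists, so that the count turned on how far the peak reached. Krt10, the type I keratin of suprabasal epidermis, was marked by H3K27ac in 4 Fed and 2 Fast lists, from a region inside the gene model 317 bp from its left-hand end. Without tetracycline all 4 lists marked it, with 768 and 755 bp covered in Fed and 952 and 1233 bp in Fast, and it was unmarked only in the 2 Fast lists with tetracycline. Among the unclassified members, Krt23 was marked by H3K27ac in 2 Fed and 4 Fast lists and Krt222 in 1 Fed and 3 Fast lists, and Krt80 in 1 Fast list. A second Krt23 region, chr11:99488804-99490102, 3018 bp inside the gene, had an H3K27ac peak in 4 Fast and 0 Fed lists. With Krt31 that made 2 of the 96 cluster regions, against 0.4% of all 112301 H3K27ac regions, and 0 cluster regions had the reverse pattern (0.0837% of all).

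Among epidermal keratins chosen for naming, H3K27ac marked Krt5, Krt14, Krt1, Krt6a, Krt16 and Krt17 in 0 lists. H3K9ac marked Krt5 in 2 lists, Krt6a, Krt16 and Krt17 in 2 each, and Krt14 and Krt1 in 1 each. Of the oral and oesophageal keratins, Krt4 and Krt13 were marked in 0 H3K27ac lists and in 1 H3K9ac list, that of Fast 1 with tetracycline.

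H3K9ac counts of marked keratins were spread too widely for a feeding difference to be read. Fed lists marked 5, 16, 5 and 12 keratins and Fast lists 17, 8, 28 and 11, in the order list 1 and list 2 without and then with tetracycline. The groups overlapped, and their means were 9.5 and 16. When each list was reduced to the same number of top-scoring peaks, the difference was 0.25. The 3 H3K9ac lists of many narrow peaks were all Fast lists. Without them the difference was -1.5, but the only Fast list left was list 2 without tetracycline, with 8 keratins.

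The length covered by peaks over each simple keratin, with 1 kb on either side, was compared between feeding states. Krt18 was covered by H3K27ac over 982, 1069, 977 and 1240 bp in Fed lists and 1335, 1687, 1525 and 1676 bp in Fast lists. All 4 Fast lists lay above all 4 Fed lists, a pattern found in 5.92% of the 9288 genes covered in all 8 lists (0.366% had the reverse). The ratio was 1.46-fold (log2 0.54; exact permutation p = 0.056, the smallest that 36 arrangements allow; adjusted over all such genes 0.529), and 976 genes reached that p. With the same number of top-scoring peaks Krt18 was not covered in all 8 lists, and the test could not be fitted. Krt7 was covered over 1050, 2230, 974 and 1203 bp in Fed and 3662, 4539, 2072 and 1856 bp in Fast lists, with 1 Fed list above 2 Fast lists. Its ratio was 2.20-fold (log2 1.14; exact permutation p = 0.056, adjusted 0.529), higher in 4 of 4 list pairs of a tetracycline state, with a median log2 ratio of 0.17 over all genes. With the same number of top-scoring peaks the Krt7 ratio was log2 0.68 (exact permutation p = 0.222).

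For H3K27ac over Krt8, Krt19 and Krt20, the Fed and Fast lists overlapped. Krt8 was covered over 4957 ± 1360 bp in Fed and 4586 ± 145 bp in Fast (SD, n = 4 lists each; exact permutation p = 0.889). Krt19 was covered over 5447 ± 1571 and 6393 ± 796 bp (SD, n = 4; exact permutation p = 0.444). Its coverage was higher in Fast in 4 of 4 pairs of same-numbered lists of a tetracycline state, against 2 of 4 each for Krt8 and Krt20. What the numbers mean is not stated, and across numbers the lists overlapped. Without tetracycline, Fast list 1 (5751 bp) lay below Fed list 2 (6715 bp). The Fast list 2 without tetracycline covered the whole Krt19 window, so that a longer coverage could not have shown in that list. Krt20 was covered over 2440 ± 854 and 2069 ± 594 bp (SD, n = 4; exact permutation p = 0.611).

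H3K9ac over Krt8 and Krt20 was lower on average in Fast, within the spread of the lists. Krt8 had 6766 ± 2005 bp in Fed and 4846 ± 2193 bp in Fast (SD, n = 4; exact permutation p = 0.222), and Krt20 had 4130 ± 2418 and 2714 ± 2057 bp (SD, n = 4; exact permutation p = 0.444). Krt19 had 6628 ± 811 and 6658 ± 607 bp (SD, n = 4; exact permutation p = 0.889), but 6 of the 8 lists covered 95.8% to 100% of its window, so that a longer coverage could not have shown there. The Fed and Fast lists overlapped for all 3 genes, and over 7460 genes covered in all 8 lists 3.07% had all Fast lists above all Fed lists and 0.67% below. Krt7 and Krt18 were covered in 6 of 8 H3K9ac lists and had no test. For Krt7, the Fast list 2 without tetracycline covered only 15 bp.

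**Figure D4:**
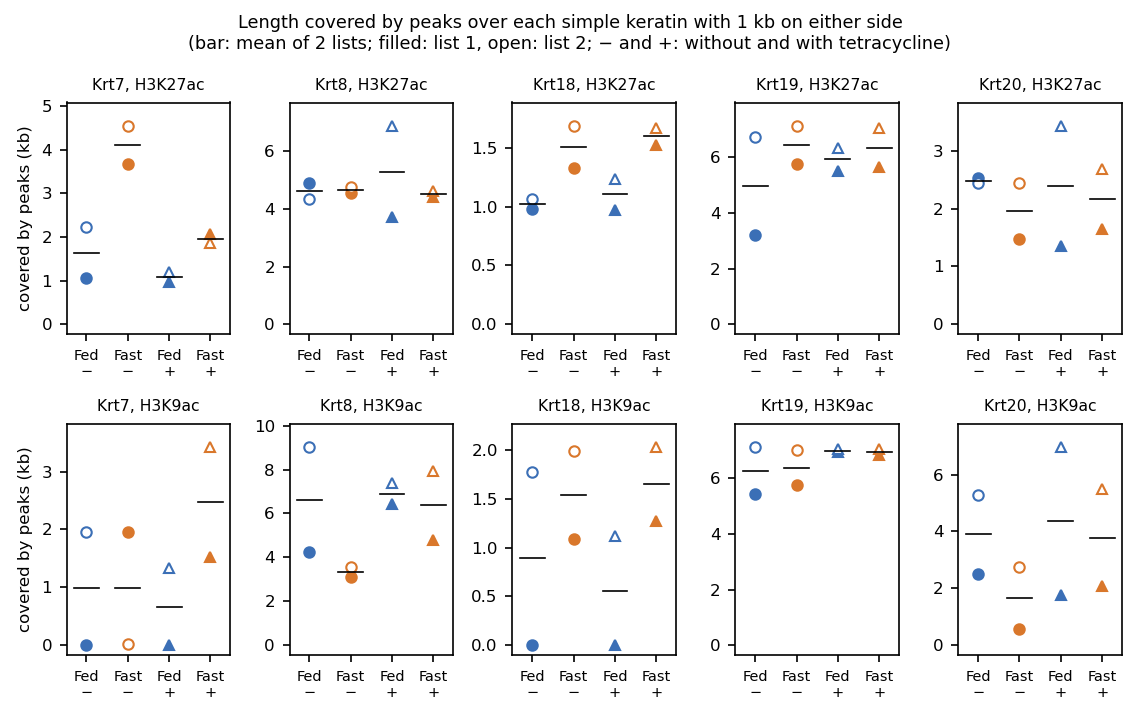
Length covered by peaks in kb (vertical axes) over each simple keratin with 1 kb on either side, for H3K27ac (upper row) and H3K9ac (lower row), in the groups on the horizontal axes. Symbols are lists and bars are means of 2 lists; for Krt18 the H3K27ac values of Fast, 1335 to 1687 bp, lie above those of Fed, 977 to 1240 bp.

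Tetracycline gave no call for any keratin, but such calls were so rare over all genes that none would be expected among the keratins. No member was marked by H3K27ac in all 4 lists with and none without tetracycline (background 0.00457%) or the reverse (0.0959%), nor by H3K9ac (0.0457% and 0.0411%). The mean number of keratins marked was 11.5 ± 3.11 without and 11.8 ± 1.71 with tetracycline for H3K27ac (SD, n = 4 lists), and 11.5 ± 5.92 and 14.0 ± 9.83 for H3K9ac. No simple keratin's lists with and without tetracycline were separated in covered length, a pattern that 0.183% (above) and 1.26% (below) of genes had for H3K27ac and 0.898% and 0.416% for H3K9ac. Krt7 came nearest for H3K27ac, with 2870 ± 1542 bp without and 1526 ± 522 bp with tetracycline (SD, n = 4), lower in 4 of 4 list pairs of a feeding state (log2 -0.78; exact permutation p = 0.111, adjusted 0.9995).

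Over the whole clusters, feeding and tetracycline differences did not pass the exact permutation test, whose smallest possible p is 0.056. On chromosome 11, H3K27ac covered 38870 ± 9442 bp in Fed and 49710 ± 3954 bp in Fast lists (SD, n = 4; log2 0.39; exact permutation p = 0.111, adjusted over 8 tests 0.444). On chromosome 15 it covered 30320 ± 4475 and 37190 ± 4645 bp (SD, n = 4; log2 0.30; exact permutation p = 0.111, adjusted 0.444). Covered length was higher in Fast in 4 of 4 pairs of same-numbered lists for each cluster, and the covered length of the whole lists differed by 0.29 on the same log2 scale. Across numbers the lists overlapped. Under tetracycline, Fast list 1 lay below Fed list 2 on chromosome 11 (44974 against 47714 bp) and chromosome 15 (32209 against 34396 bp). The other 6 tests gave exact permutation p values between 0.278 and 0.722.

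Genes whose products join or replace keratin filaments were counted in the same way. Of 15 desmosome genes, which anchor keratin filaments to cell junctions, 9 or 10 were marked in each H3K27ac list and 8 in all 8 H3K27ac lists: Dsp, Jup, Pkp1, Pkp2, Pkp3, Pkp4, Dsg2 and Dsc2. The epidermal desmosomal cadherins Dsg1a, Dsg1b, Dsg1c, Dsc1 and Dsc3 were marked in 0 H3K27ac lists, the epidermal Dsg3 in 3, and Dsg4, known from the hair follicle, in 7. For H3K9ac, 6 to 10 desmosome genes were marked in a list and 4 (Dsp, Pkp2, Dsg2 and Dsc2) in all 8. Of 5 linker genes, Plec, Eppk1, Ppl and Evpl were marked in all 8 H3K27ac lists and Dst in 0. For H3K9ac, Evpl was marked in 8 lists, Plec in 7, Eppk1 and Ppl in 6 and Dst in 1. Of 13 other intermediate filament genes, the lamins Lmna, Lmnb1 and Lmnb2 were marked in all 8 H3K27ac lists, Vim in 5 and the neurofilament genes Nefl, Nefm and Nefh in 0. For H3K9ac, Lmnb1 was marked in 7 lists, Lmnb2 in 5, and Lmna, Vim and Nefh in 3 each. Of 53 Krtap genes, whose products fill the hair shaft between keratin filaments, 43 were marked in no H3K27ac list and 2 to 7 in a single list. For H3K9ac, 37 Krtap genes were marked in no list and 0 to 8 in a single list. Over all genes, 33.6% were marked in all 8 H3K27ac lists and 39.4% in none, and 21.1% in all 8 H3K9ac lists and 25.2% in none.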

How the data were processed

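The 16 peak lists used were 8 per mark, from 8 samples of 2 lists. Per the submitters' processing notes, FastQC, Bowtie and SAMtools and the build mm10 were used; versions and cutoffs are not given in the sources used here. Peak names in the deposited lists begin with MACS, and the list names describe the data as downsampled. The authors deposited for each peak a score of unstated unit, used here only for ordering peaks of the same list. Depth is unknown, so no interval that needs it is given. How the IgG named in the labels was used is not stated.

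Peaks on chromosomes 1 to 19, X and Y were overlapped (at least 1 bp) with genes and promoter windows of RefSeq tables for GRCm38.p6. That gene table gives no strand, so both ends were used, and start sites came from the promoter windows. Covered length was compared as the mean log2 ratio, for clusters with 1 bp added, by two-sided exact permutation within tetracycline or feeding state (36 arrangements), with Benjamini-Hochberg adjustment. None of these tests can pass 0.05. List pairs join lists of the same number, though what the numbers mean is not stated. The alternatives were the upper 0.5 of peaks by score, equal numbers of top peaks, peaks of at least 500 bp, a window of 2.5 kb, start sites only, any overlap with the gene, at least 0.5 of the peak inside, clusters without the simple keratins, leaving out a list number, and a block for list number. Setting aside lists with over 10% of peaks 200 bp wide was added after seeing the data, as was tracing Krt31 under each alternative. The counting was tested on simulated data. The values of 1 immune marker are not reported here.

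Members and lists were chosen with earlier results of these data known. Genes named were the 5 simple keratins, 13 others named whatever their values, members marked in at least 4 lists of a mark, those differing by 3 or more lists between conditions, and members called. Regions away from gene ends were named from those present in at least 6 lists. Others, such as the region inside Krt23 in 4 lists, and the markers named, were singled out after their values were seen. Computations and tests ran in Python 3.11.15 with pandas 2.3.3 and numpy 2.4.6, and plots with matplotlib 3.10.9.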

Additional observations from a re-analysis of the deposited data

Results flagged for a closer look

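The H3K9ac coverage of Krt19 in the Fed list 1 without tetracycline stood apart from the other Fed lists. It was 5418 bp, against 6931 to 7117 bp in the other 3 lists, and the gap to the nearest was 0.89 of the whole range. The other 3 lists covered 97.4% to 100% of the gene's window, so the measure was near its upper limit there, which narrows their spread. That list also held the fewest peaks of all lists, 17249; the part of list size in the value was not tested. In all, 32 groups of 4 lists were examined in this way, and chance flags about 1 in 20 groups.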

How the results depend on the processing

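The difference between simple and skin keratins, as percent marked, was 89.1 points for H3K27ac and 71.4 for H3K9ac, and it stayed positive under every alternative run. For H3K27ac it was 68.9 with the upper part of each list by score, 85.2 with a window of 2.5 kb, 97.5 at start sites only and 79.0 with at least 0.5 of the peak inside. The H3K27ac excess of keratins marked in Fast, 3.75 genes, was 1.0 with equal numbers of top peaks, 1.0 at start sites and 2.0 with 0.5 of the peak inside. Both start-site values rest on the 36 members with a promoter window, 4 simple and 25 skin keratins among them, and not on all 53. The tetracycline difference for H3K27ac, 0.25 genes, was -2.25 with the upper part by score, and -1.5 to 2.0 when a list number was left out. The H3K9ac excess in Fast was -4.5 to 17.5 when a list number was left out.

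Log2 ratios of covered length that changed sign were mostly near 0. For Krt8 H3K27ac, Fast over Fed was 0.049 with the upper part by score and 0.018 with equal numbers, against -0.075, and tetracycline was -0.083 with the upper part, against 0.046. For Krt19 H3K9ac, Fast over Fed was -0.031 under both score filters, against 0.010. The chromosome 11 cluster's H3K9ac Fast ratio, 0.32, was -0.00059 with the upper part and -0.68 with equal numbers, and that of chromosome 15, 0.54, was -0.60 with equal numbers. Krt18 H3K27ac tetracycline was -0.34 with the window of 2.5 kb, against 0.10.

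Leaving out 1 list number at a time gave log2 Fast over Fed of -0.22 to 0.070 for Krt8 H3K27ac, -0.012 to 0.033 for Krt19 H3K9ac, and -0.64 to 1.27 (chromosome 11) and -0.29 to 1.38 (chromosome 15) for the clusters' H3K9ac. For tetracycline it gave -0.22 to 0.31 (Krt8), -0.047 to 0.38 (Krt19) and -0.38 to 0.31 (Krt20) for H3K27ac, and -0.0023 to 0.30 for Krt19 H3K9ac. The cause of these changes was not tested, except that fewer peaks enter under the score filters by construction. Tests could not be fitted where a gene was not covered in all 8 lists: Krt18 H3K27ac and Krt20 H3K9ac under both score filters, and Krt7 and Krt20 H3K27ac with the upper part by score. Krt31's lead of 4 lists was 0 under both score filters and at the start site, and 2 with 0.5 of the peak inside. With list number as a block, 24 tests gave exact permutation p from 0.125, the smallest 16 arrangements allow, to 1.0. The sample labels give no replicate numbers, but the names of the deposited lists number them rep 1 and rep 2. Deviations of same-numbered lists correlated at 0.017 to 0.24 over 6 pairs (H3K27ac, 9288 genes) and -0.11 to 0.22 (H3K9ac, 7460 genes).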
